A study of Talinum fruticosum with 24 samples.

Results

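This is a description of 61 leaf features of the waterleaf Talinum fruticosum (Talinum triangulare in the study's title) whose read counts were highest in the early morning and whose level in leaves sprayed with abscisic acid (ABA) stayed close to that in mock leaves. They were chosen by their measured values from 16461 features with a mean of at least 10 counts per library, out of 20617 features with a count in any library. Levels are in CPM, reads per feature relative to the library total once TMM, edgeR's correction for library composition, has been applied, and are compared as log2(CPM + 1). A feature was taken when its mock mean at the last harvest exceeded each of the 5 earlier mock means by at least 1 on the log2 scale, called the morning excess here. Its ABA and mock means also had to differ by less than 0.5, a ratio of about 1.41, at each of the 6 harvests.

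Leaves of plants aged 2 months, all watered alike, were sprayed on the upper side with 200 µM ABA or with mock solution. Both solutions held methanol and the wetting agent Tween-20. The first spray came 4 h into a 12 h light period and the second came 4 h later. Harvests at 40, 80, 160 and 320 min after the first spray fell 4.7, 5.3, 6.7 and 9.3 h into the light. The harvest at 640 min fell 2.7 h into the dark, and that at 1280 min fell 1.3 h after the following lights on. The 12 groups, mock or ABA at 1 harvest, held 2 libraries each from different plants, and both treated leaves of a plant were pooled. Nothing was sampled in the 10.7 h between the last 2 harvests, and no leaf was taken in the early morning before the first spray. A maximum at dawn therefore cannot be told apart from one late in the night, and the hour of the day is confounded with the time since spraying, so these cannot be told apart. In whole leaves, fewer cells of a type and less RNA per cell cannot be told apart.

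Plants anticipate dawn through a circadian clock and respond to light itself, so many leaf transcripts reach their highest level around the start of the day. ABA is the hormone of drought and closes stomata. In this species it can also bring on crassulacean acid metabolism, a water-saving form of photosynthesis with nocturnal carbon uptake. Large groups of leaf transcripts change with the hormone, and the 61 features are those near dawn that moved least by the rule. The files carry identifiers without gene names, so no function is given for any feature, leaf markers could not be looked up, and few identifiers are printed.

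Library totals ran from 16577222 to 26846579 counts, and 18389 to 19030 features were detected per library. TMM factors ran from 0.659 to 1.69. Together the 61 features held between 0.164% and 0.806% of the counts of a library. In 57 of them every library held at least 1 count, and their mean counts ran from 12.1 to 29504. CPM is not corrected for transcript length, so levels of different features are not compared as amounts of transcript.

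Few of the morning-peaking features met the ABA limit. A morning excess of at least 1 was found for 990 features, 6.01% of the 16461, and 61 of these (6.16%) stayed within the limit at every harvest. Among all 16461 features 35.0% stayed within it. For features highest at 640 min by the same margin, in the night, it was 21 of 154 (13.6%). These shares describe the rule and were not tested. The harvest that removed most morning-peaking features was 1280 min, where 737 of the 990 lay outside the limit, 598 lower and 139 higher with ABA. For 186 features it was the only harvest outside the limit. At 40 min 42 of the 990 lay outside it. The mock mean at 1280 min enters both the morning excess and the ABA difference at 1280 min, so these quantities are not independent.

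Most of the 61 features lay near a limit. Their morning excess ran from 1.00 to 2.58 with a median of 1.14, and 24 had an excess under 1.1. The feature just outside had an excess of 0.999 and a largest ABA difference of 0.492, and the feature just inside had 1.003 and 0.328. Their largest ABA difference over the harvests ran from 0.13 to 0.50 with a median of 0.42, and 35 reached at least 0.4. The morning-peaking feature just outside that limit had a largest difference of 0.501, and the feature just inside had 0.496. Another 43 morning-peaking features had a largest difference from 0.5 to 0.6.

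In mock leaves the 61 features stood at a median of 1.27 log2 units higher at 1280 min than at 40 min, 1.89 higher than at 320 min and 1.77 higher than at 640 min. Both mock libraries of 1280 min lay above all 10 earlier mock libraries in 61 of 61 features, against 22.2% of all 16461. In ABA leaves the same order held in 59 of 61, against 17.2% of all features. The rule used these values, so nothing is read from the shares. The ABA limit ties each ABA mean to its mock mean, so that a higher mean at 1280 min in ABA leaves also follows from the rule. By the limit alone the ABA excess could lie up to 1 below or above the mock excess. It ran from 0.11 to 2.63 with a median of 0.95, and it reached 1 in 28 of the 61 features, against 4.5% of all features. It was smaller than the mock excess in 48 of the 61, and over all 61 the ABA excess minus the mock excess had a median of -0.27. The rule asked for a high mock excess and set no minimum for the ABA excess. A smaller ABA excess is therefore favoured by the choice, and nothing is read from it.

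**Figure D1:**
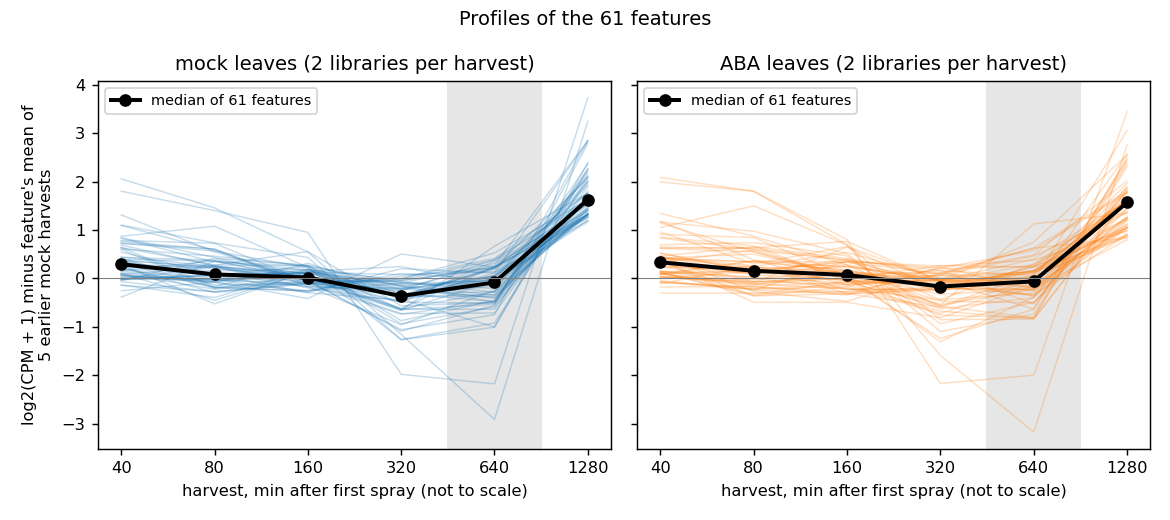
Profiles of the 61 features in mock leaves (left) and ABA leaves (right), as group means of log2(CPM + 1) minus the feature's mean over the 5 earlier mock harvests, with the black line giving the median feature and the grey band the harvest in the dark. The median line falls from 40 to 320 min and stands highest at 1280 min in both panels, where the features were chosen to be high.

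The largest morning excess, 2.58, was that of KMT03189, a sparse feature with 0 to 7 counts per mock library up to 320 min. With a pseudocount of 5 its excess was 1.24, below the 1.77 of KMT16794. In mock leaves KMT03189 measured 0.313 and 0.270 CPM at 40 min, 0.107 and 0.341 at 80 min, 0 and 0.317 at 160 min, 0.123 and 0.0433 at 320 min, 0.370 and 0.629 at 640 min, and 7.10 and 8.89 at 1280 min. In ABA leaves KMT03189 measured 0.127 and 0.234 CPM at 40 min, 0.156 and 0 at 80 min, 0.159 and 0.104 at 160 min, 0.194 and 0.236 at 320 min, 0.910 and 1.29 at 640 min, and 5.38 and 7.24 at 1280 min. Libraries of 1280 min stood clear of all others in both treatments, as the rule required of the means. Most counts of KMT03189 lay in these libraries, and without them its mean would fall below the minimum of 10. Nothing is therefore read from this separation. At 640 min both ABA libraries lay above both mock libraries, with 30 and 43 counts against 10 and 19. The difference passed the rule as 0.48 on the log2(CPM + 1) scale, which compresses changes of features near 1 CPM.

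KMT16794 had the next largest excess, 2.29, and a higher level throughout. Its mock libraries held 6.39 and 4.69 CPM at 40 min, 4.13 and 3.36 at 80 min, 2.80 and 2.48 at 160 min, 2.14 and 2.43 at 320 min, 3.78 and 3.84 at 640 min, and 28.4 and 33.4 at 1280 min. The ABA libraries of KMT16794 held 5.47 and 4.56 CPM at 40 min, 3.94 and 4.54 at 80 min, 4.74 and 3.12 at 160 min, 3.62 and 3.07 at 320 min, 3.52 and 3.06 at 640 min, and 36.6 and 35.5 at 1280 min. Here the ABA libraries of 1280 min were the highest, just above both mock libraries, and no other library exceeded 6.39 CPM. Unlike most of the 61 features, its morning excess was larger in ABA leaves (2.63) than in mock leaves.

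The feature with the most reads, KMT20557, held a large part of the group's counts: without it the 61 features made up 0.318% and 0.346% of counts in mock leaves at 1280 min, in place of 0.581% and 0.637%. In mock leaves KMT20557 measured 1681 and 1752 CPM at 40 min, 1553 and 1743 at 80 min, 933 and 963 at 160 min, 634 and 576 at 320 min, 595 and 620 at 640 min, and 3688 and 3788 at 1280 min. In ABA leaves KMT20557 measured 1842 and 1720 CPM at 40 min, 1498 and 1511 at 80 min, 975 and 1045 at 160 min, 635 and 662 at 320 min, 738 and 781 at 640 min, and 2739 and 2676 at 1280 min. Libraries of 40 and 80 min overlapped in mock leaves, and those of 160 and 320 min were lower in both treatments. At 320 min against 40 min the log2 fold change was -1.51 ± 0.15 (SE; edgeR adjusted p = 2.04e-07) in mock leaves and -1.45 ± 0.15 (edgeR adjusted p = 2.72e-07) in ABA leaves. At 1280 min both ABA libraries lay below both mock libraries, a difference of -0.47 on the log2(CPM + 1) scale that is close to the limit and that was 0.22 with library size alone. KMT16092, second by reads, measured 875 and 895 CPM in mock leaves at 1280 min and 850 and 722 in ABA leaves. At 320 min it stood at 207 and 185 CPM in mock leaves and 272 and 269 in ABA leaves, a difference of 0.46.

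**Figure D2:**
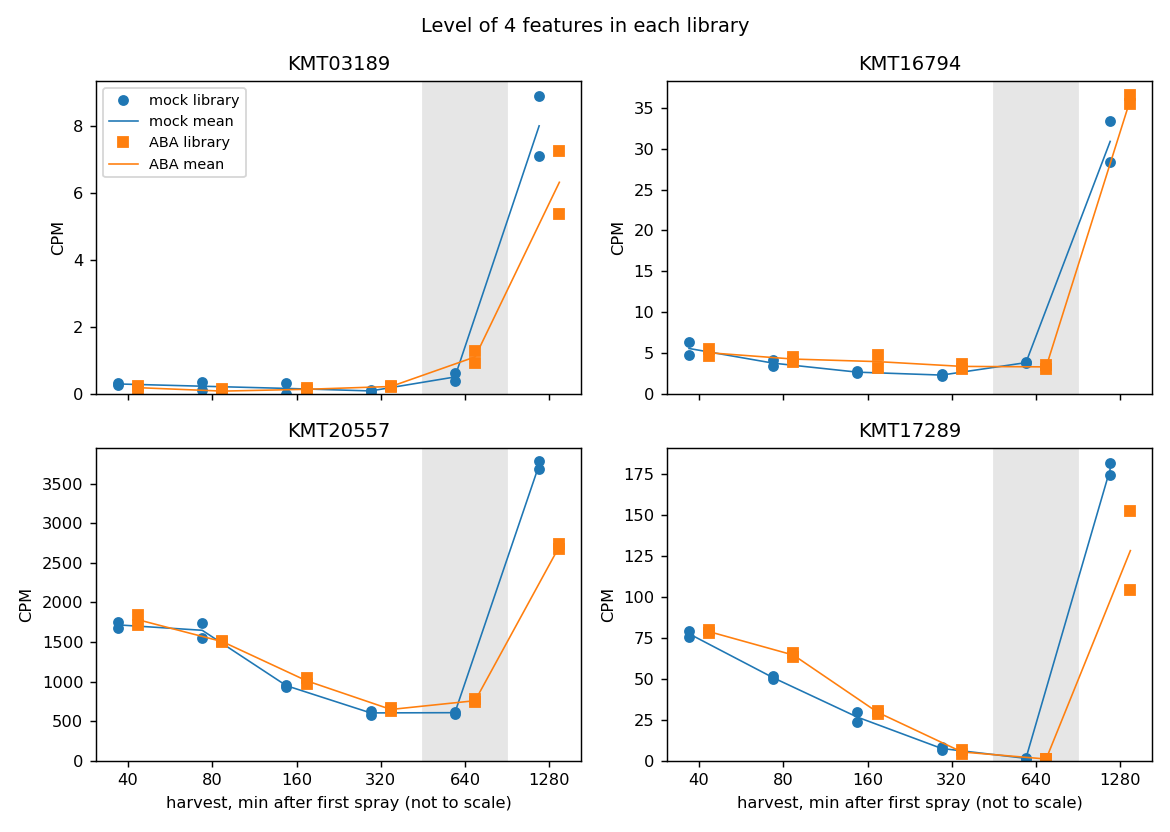
CPM of 4 features in each of the 24 libraries by harvest, with circles for mock and squares for ABA libraries, lines through the group means and a grey band for the harvest in the dark. KMT03189 and KMT16794 have the largest morning excess, KMT20557 the most reads and KMT17289 the lowest ABA minus mock difference at 1280 min; each is highest at 1280 min, where KMT20557 stands at 3688 and 3788 CPM in mock and 2739 and 2676 in ABA leaves.

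The order of the 5 earlier harvests was not used by the rule and was tested in the fit of all features. In mock leaves most of the features were lower in the afternoon than in the late morning. The 40 min harvest preceded the second spray and the 320 min harvest came 80 min after it. Hour of the day and second spray therefore cannot be told apart here. At 320 min against 40 min 40 of the 61 features were lower, against 22.4% of the 17561 features tested, and 1 was higher, against 22.2% (edgeR quasi-likelihood test, adjusted p under 0.05). The median log2 fold change of the 61 was -0.72, and that of all features was 0.02. Among the 40 that fell, log2 fold changes ran from -4.75 to -0.29, and 23 were at least 2-fold. With library size alone as the scaling, 21 were lower and 5 were higher. The median of all features then moved to 0.58 and that of the 61 to -0.16. A change of scaling shifts all features about alike, so the gap between these medians cannot show whether the fall depends on the scaling.

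KMS95037 fell most from late morning to afternoon. In mock leaves KMS95037 measured 25.8 and 25.7 CPM at 40 min, 18.4 and 20.3 at 80 min, 15.1 and 12.7 at 160 min, 0.782 and 1.13 at 320 min, 0.333 and 1.16 at 640 min, and 106 and 95.5 at 1280 min. In ABA leaves KMS95037 measured 31.5 and 27.4 CPM at 40 min, 23.3 and 28.6 at 80 min, 12.2 and 12.5 at 160 min, 0.873 and 0.552 at 320 min, 0.516 and 1.44 at 640 min, and 82.6 and 81.9 at 1280 min. The step between 160 and 320 min separated all libraries of both treatments. Its log2 fold change at 320 min against 40 min was -4.75 ± 0.35 (SE) in mock leaves (edgeR adjusted p = 8.85e-09) and -5.33 ± 0.36 in ABA leaves (edgeR adjusted p = 2.14e-09). KMT03023 went from 2.38 and 2.26 CPM at 40 min to 0.123 and 0.260 at 320 min in mock leaves, and its fitted change was -3.57 ± 0.46 log2 units (SE; edgeR adjusted p = 4.8e-06). The 320 min libraries held only 3 and 6 counts of KMT03023.

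The single feature higher in the afternoon, KMT18159, measured 1.75 and 1.46 CPM at 40 min and 3.29 and 3.51 at 320 min in mock leaves. Its log2 fold change was 1.08 ± 0.39 (SE; edgeR adjusted p = 0.0311). The call was lost without any 1 of the 4 libraries compared, where the lone library left in a group is assumed to vary like the other groups, with adjusted p of 0.0753 and 0.16 without mock replicate 1 or 2 of 40 min and 0.0748 and 0.102 without mock replicate 1 or 2 of 320 min, and its alternatives spanned 0.00132 to 0.16. In ABA leaves the libraries of KMT18159 held 2.35 and 2.34 CPM at 40 min and 3.81 and 1.77 at 320 min, and they overlapped.

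From the afternoon into the night the calls differed between features, and most features had none. At 640 min against 320 min 18 of the 61 were higher in mock leaves, against 16% of all features tested, and 2 were lower, against 17.1% (edgeR adjusted p under 0.05). Log2 fold changes of the 18 ran from 0.42 to 2.98, with a median of 0.70, and 4 were at least 2-fold. The count of 18 was 8 without mock replicate 1 of 320 min and 8 without mock replicate 2 of 640 min. Library size alone gave 38 higher and 1 lower, with the median of all features at 0.46 in place of 0.02. The median of the 61 was then 0.77 in place of 0.33. Here too the scaling shifts all features about alike, so nothing is read from the gap between the medians. Of the 18 features higher in the night, 13 had fallen from 40 to 320 min. Another 25 fell from 40 to 320 min and showed no call from 320 to 640 min, 2 fell in both steps, and 15 had no call in either. The other 6 were called in 1 step only, 5 higher at 640 min and KMT18159 higher at 320 min.

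KMT17289 fell through both steps and had the widest swing of the 61 in mock leaves. In mock leaves KMT17289 measured 79.3 and 75.7 CPM at 40 min, 51.5 and 49.9 at 80 min, 23.5 and 29.7 at 160 min, 8.56 and 6.46 at 320 min, 1.63 and 1.36 at 640 min, and 182 and 174 at 1280 min. In ABA leaves KMT17289 measured 77.8 and 79.8 CPM at 40 min, 63.5 and 65.5 at 80 min, 30.3 and 28.8 at 160 min, 6.82 and 3.94 at 320 min, 1.00 and 1.17 at 640 min, and 152 and 104 at 1280 min. Each step from 40 to 640 min was downward in both treatments, with no overlap between libraries of successive harvests. The log2 fold change at 640 min against 320 min was -2.34 ± 0.25 (SE; edgeR adjusted p = 1.59e-06) in mock leaves and -2.32 ± 0.26 (edgeR adjusted p = 1.83e-06) in ABA leaves. KMT16405, the other feature lower in the night, went from 1.56 and 2.25 CPM to 0.963 and 0.927 in mock leaves (log2 fold change -1.01 ± 0.30, SE; edgeR adjusted p = 0.0133). That call was lost without mock replicate 2 of 320 min (adjusted p = 0.159), without mock replicate 1 or 2 of 640 min (0.0552 and 0.0757) and with library size alone (0.163), within a range of 0.00759 to 0.163.

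The steepest rises into the night came from sparse features. KMS99431 held 0 and 4 counts at 320 min and 14 and 27 at 640 min in mock leaves (log2 fold change 2.98 ± 0.89, SE; edgeR adjusted p = 0.0148). This value was 2.00 (adjusted p = 0.155) without mock replicate 1 of 320 min, 2.51 (adjusted p = 0.113) without mock replicate 2 of 640 min and 6.97 without mock replicate 2 of 320 min, which left only a count of 0 at 320 min and a fold that depends on edgeR's prior count. Adjusted p ran from 0.00425 to 0.155 over its alternatives. KMT07801 held 2 and 1 counts at 320 min and 12 and 12 at 640 min (edgeR adjusted p = 0.0206). The ratio of its pooled counts, scaled by library, was 6.63, with an exact 95% interval of 2.01 to 34.4 that covers counting error only. Its call was lost without any 1 of these 4 libraries, with adjusted p from 0.0597 to 0.13, and its alternatives spanned 0.00672 to 0.13. In ABA leaves neither feature had a call at 640 min against 320 min (edgeR adjusted p = 0.379 for KMS99431 and 0.128 for KMT07801).

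The same tests were run in ABA leaves, whose means the ABA limit ties to the mock means. At 320 min against 40 min 33 of the 61 features were lower in ABA leaves, against 22.4% of all features tested, and 32 of these were also lower in mock leaves. No feature was higher by edgeR or by DESeq2, against 25% of all features tested by edgeR, and 2 were higher at an unadjusted p under 0.05 by edgeR. With library size alone the split turned to 18 higher and 15 lower, while the median of all features moved from 0.06 to 0.78 and that of the 61 from -0.59 to 0.13. At 640 min against 320 min 16 were higher, against 14.4%, and 3 were lower, against 16.9%. Of the 16, 13 were also higher in mock leaves. The median log2 fold change of the 61 was 0.22, and 0.62 with library size alone. The count of 16 was 10 without ABA replicate 1 of 320 min, and library size alone gave 35 higher and 1 lower, with the median of all features at 0.37 in place of -0.03. Any difference among the 5 earlier harvests was found for 47 of the 61 features in mock leaves, against 69.4% of all features tested, and for 41 in ABA leaves, against 66.7%.

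**Figure D3:**
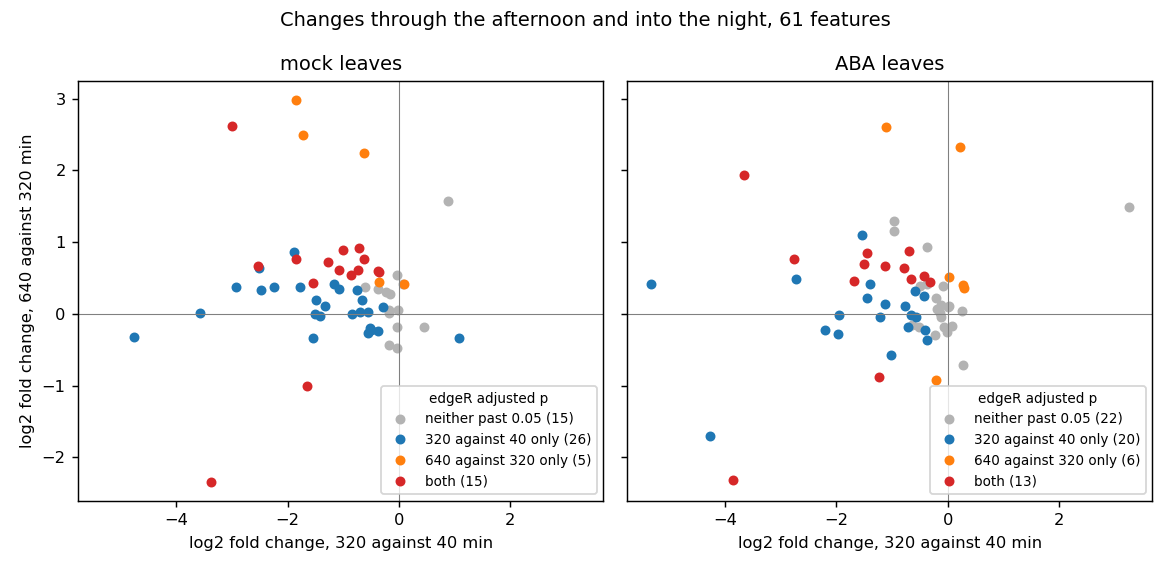
Fitted log2 fold change of each of the 61 features at 320 against 40 min (horizontal) and at 640 against 320 min (vertical) in mock leaves (left) and ABA leaves (right), coloured by which of the edgeR tests passed an adjusted p of 0.05. Most points lie left of 0, with 40 features lower at 320 min in mock and 33 in ABA leaves, and 18 and 16 features higher at 640 min.

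Among the 5 earlier harvests the mock mean was highest at 40 min in 35 features and at 640 min in 14. It was lowest at 320 min in 37 features, at 640 min in 12 and at 40 min in 0. Over all 16461 features the mock mean was highest at 40 min in 22.3% and at 640 min in 28.3%. It was lowest at 320 min in 20.8%, at 640 min in 25.7% and at 40 min in 21.3%. In ABA leaves 40 min was highest in 29 features and 320 min lowest in 26. Both treatments had the same highest earlier harvest in 41 features and the same lowest in 42. The ABA limit ties each ABA mean to its mock mean, so nothing is read from this agreement. No share over all features is given for these counts or for the order in ABA leaves. The range of the 5 earlier mock means had a median of 0.80 log2 units over the 61 features and 0.85 over all features. In the other 929 morning-peaking features the median range was 1.31. Of these 929 features 654 (70.4%) were lower at 320 min against 40 min in mock leaves, beside 65.6% of the 61. At 640 min against 320 min 284 (30.6%) were higher and 120 (12.9%) lower, beside 29.5% and 3.28% of the 61. These shares were not tested against each other. Among the 21 night-peaking features within the ABA limit, 13 were higher at 320 min against 40 min in mock leaves.

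The ABA differences inside the limit were not spread evenly around 0. At 1280 min 45 of the 61 features were lower in ABA leaves and 16 higher, with a median difference of -0.29. Of all 16461 features 47.6% were lower and 52.4% higher, with a median of 0.04. At 320 min 43 of the 61 were higher with ABA, against 49.3% of all features, with a median of 0.12 against -0.01. Medians at 40, 80, 160 and 640 min were 0.04, 0.07, 0.09 and 0.09, and those of all features were 0, 0, -0.01 and -0.02. All 990 morning-peaking features together had a median of -0.73 at 1280 min and 754 of them were lower with ABA. Across the 5765 features within the limit at every harvest the median at 1280 min was 0.06, and 42.1% were lower with ABA. Each mock mean enters both the rule for the peak and the difference, so these values are a description. Their sign at 1280 min depended on the scaling: with library size alone 60 of the 61 features were higher in ABA leaves, with a median of 0.37 against 0.56 for all features. The median of the 61 lay below that of all features under both scalings. A change of scaling moves all features in the same direction, so nothing is read from this order. As a share of raw counts the 61 features held 0.581% and 0.637% in mock leaves and 0.754% and 0.806% in ABA leaves at 1280 min, where TMM factors were 0.713 and 0.77 in mock and 1.12 and 1.26 in ABA libraries. After TMM scaling their summed level was 8151 and 8276 CPM in mock leaves and 6711 and 6394 CPM in ABA leaves.

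**Figure D4:**
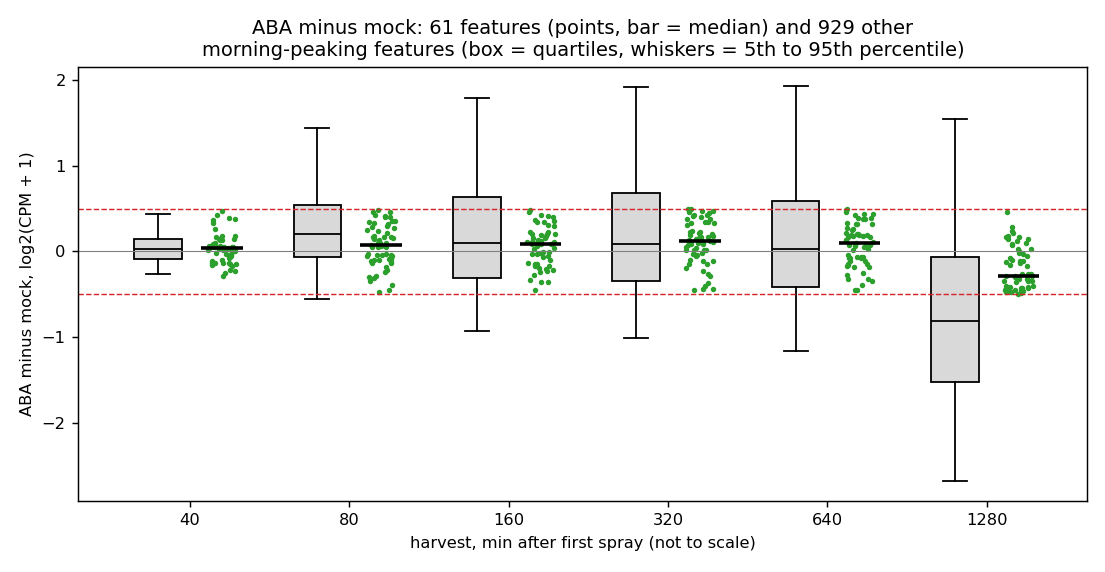
ABA minus mock difference of group means of log2(CPM + 1) at each harvest, with points for the 61 features (bar, median) and boxes for the other 929 morning-peaking features (quartiles, whiskers at the 5th and 95th percentile); dashed lines mark the limit of 0.5. The points lie inside the limit by choice, and at 1280 min 45 of the 61 lie below 0, against 47.6% of all features.

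A difference under the limit is not the absence of an ABA effect. In the edgeR fit 21 of the 61 features passed an adjusted p of 0.05 for ABA against mock at 1 or more harvests, against 60.9% of all features tested. At 40 min none was called, against 0.125% of all features higher and 0.00569% lower. At 80 min 1 was higher with ABA and none lower, against 4.08% and 1.84%, and the 160 min harvest gave 1 and none, against 8.55% and 5.06%. In the afternoon harvest 11 were higher and none lower, against 13.6% and 12.2%. The night harvest gave 5 higher and none lower, against 11.2% and 13.6%. In the morning harvest none was higher and 16 were lower, against 23.3% and 22.2%. The rule used these contrasts, so nothing is read from the counts, and the features are named here by their rule and not as untouched by ABA. The 16 had log2 fold changes from -0.47 to -0.27. In turn, a missing call does not show equal levels: the 95% interval at 1280 min reached 0.22 to 1.24 to either side of the estimate, with a median of 0.40. In 40 of the 61 features the interval lay within 1 log2 unit of 0 at all 6 harvests. The ABA limit favours such intervals, and no share over all features is given. The highest difference at 1280 min was that of KMT04918, with 26.9 and 25.5 CPM in mock leaves and 42.0 and 31.7 in ABA leaves, 0.46 on the log2(CPM + 1) scale (fitted log2 fold change 0.49 ± 0.25, SE; edgeR adjusted p = 0.116). The lowest was that of KMT17289, at -0.50 and at 0.18 with library size alone (fitted -0.47 ± 0.19; edgeR adjusted p = 0.0518), whose ABA libraries of 152 and 104 CPM both lay below the mock libraries of 182 and 174. KMT04918 and KMT17289 were picked by this difference, so their adjusted p are a description.

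In libraries that the choice did not use, more of the features kept the morning peak than the ABA limit. Counted by an excess of at least 1, the gap was wide for features chosen on replicate 1 and small for those chosen on replicate 2. When the rule was applied to replicate 1 of every group alone, it chose 66 features. In replicate 2 all 66 had their highest mock level at 1280 min, against 29.5% of all 16461 features, and 49 had an excess of at least 1, against 5.88%. The median excess was 1.21 in the libraries that chose and 1.22 in those that did not. The ABA limit held at all 6 harvests in 14 of the 66, against 23.1% of all features, and the median of the largest ABA difference moved from 0.42 to 0.72. In harvest order from 40 to 1280 min, the limit held in 63, 57, 57, 47, 52 and 31 of the 66, against 94.3%, 72.9%, 72.2%, 65.9%, 72.4% and 47.8% of all features.

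Chosen on replicate 2 of every group, the rule gave 40 features. In replicate 1 all 40 had their highest mock level at 1280 min, against 29.0% of all features, and 23 had an excess of at least 1, against 5.62%. The median excess was 1.13 in the libraries that chose and 1.03 in the others. The ABA limit held in 21 of the 40, against 31.0% of all features, and in 33 of them at 1280 min, against 57%. The complete rule held in 10 features in each direction. These are the same 10 features, the overlap of the lists of 66 and 40, so the directions are not separate results. Of all features 0.243% met the rule in replicate 2 and 0.401% in replicate 1. Each of these readings rests on 1 plant per group, and all 24 libraries set the scaling.

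**Figure D5:**
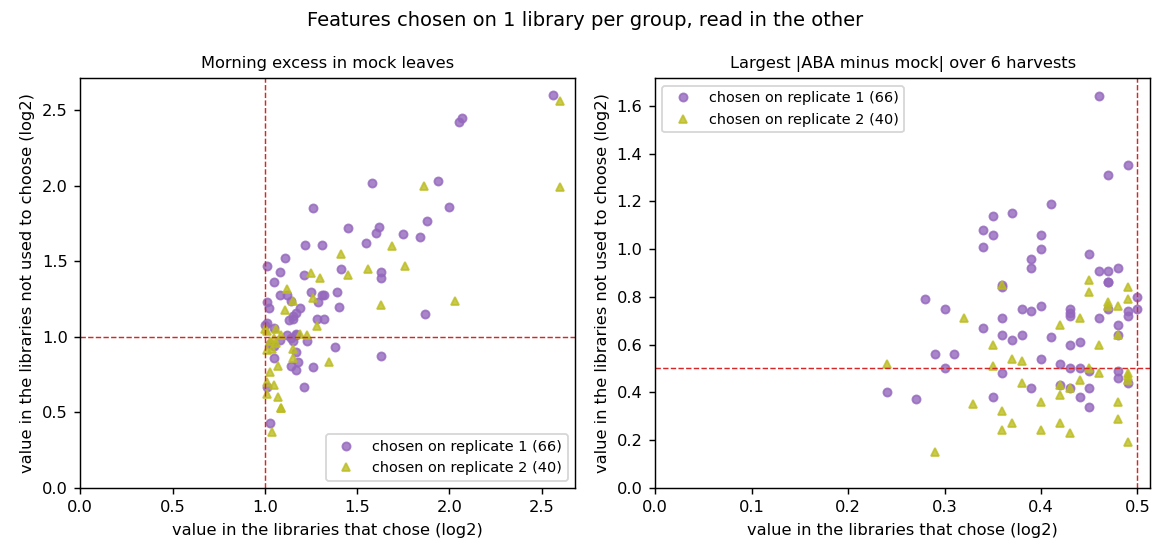
Features chosen on 1 library per group (66 on replicate 1, circles; 40 on replicate 2, triangles), with the value in the libraries that chose on the horizontal axis and in the other libraries on the vertical axis, for the morning excess in mock leaves (left) and the largest absolute ABA difference over the harvests (right); dashed lines mark the limits. All points of the left panel lie above 0 on the vertical axis, while 14 of 66 and 21 of 40 points of the right panel lie under 0.5.

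Replicates of the 61 features lay close together in the mock libraries of the last harvest. The absolute difference between both mock libraries of 1280 min had a median of 0.09 log2 units for the 61 and 0.16 for all features. Between both ABA libraries it was 0.18 for the 61 and 0.25 for all features, with a highest value of 1.74. These libraries also set the means that the rule used, so the values are a description. The 61 features had a median log2(CPM + 1) of 3.61 over the 24 libraries, all features 3.51 and the other morning-peaking features 3.99.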

How the data were processed

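Polyadenylated leaf RNA was sequenced in 24 libraries. The authors deposited 1 list per library with raw counts, whole numbers without normalisation. Features not listed in a library were taken as 0. Per the submitters' processing notes, CASAVA, Trimmomatic and DESeq2 were used. Their roles and versions, the aligner, the reference and the use of strand are not stated in the labels, so near-identical or overlapping features may share counts. The 24 libraries come from separate plants by the study's design text. Lanes held 12 samples each, but the lane of each library is not given, so no batch was examined.

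The rule used TMM factors and CPM of the 16461 features with a mean of at least 10 counts. Members and lists were chosen with earlier results of these data known. Tests used edgeR 4.0.16 in R 4.3.3: features passing its filter by group (17561), TMM, a quasi-likelihood fit with robust spread to all 24 libraries with 1 mean per group (12 residual degrees of freedom), two-sided F-tests and Benjamini-Hochberg adjustment over all 17561. Log2 fold changes are edgeR's, and differences of log2(CPM + 1) are named as such. Each SE is the fold change over the square root of its F value. The fit and the rule were tested on simulated counts. DESeq2 1.42.0 was an alternative. Where leaving out a library left 1 in its group, the spread came from the other groups. Counts of 0 to 10 leave wide counting error. Features were named by a rule: the 2 with the largest morning excess, the 2 with the most CPM at 1280 min in mock leaves, in each tested mock comparison up to 2 that rose and 2 that fell most without overlap of libraries, and the highest and lowest ABA difference at 1280 min. Same-numbered replicates were checked for pairing: deviations from group means correlated at over 0.1 in 14 of 66 pairs of groups (range -0.43 to 0.39), so the numbers were not taken to pair the plants.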

Additional observations from a re-analysis of the deposited data

How the results depend on the processing

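The number of chosen features, 61, followed the limits directly: 6 with an ABA limit of 0.25, 338 with 1, 341 with a morning excess of 0.5 and 2 with 2. Other settings changed which features were chosen more than how many. Library size alone gave 44 features, of which 6 were among the 61, a pseudocount of 5 gave 59 (30 shared), a pseudocount of 0.5 gave 61 (48 shared), no filter gave 54 (48 shared), a mean of at least 50 counts gave 57 (51 shared) and DESeq2 size factors gave 64 (60 shared). TMM factors from all features with a count, an alternative chosen after seeing the data, gave 52 (48 shared). Leaving out libraries gave 41 (without replicate 1) to 75 (without ABA replicate 2 of 1280 min).

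For the tests, library size alone gave 5 higher and 21 lower at 320 min against 40 min in mock leaves, 18 and 15 in ABA leaves, and 38 and 1, then 35 and 1, at 640 min against 320 min. A threshold of 0.01 left 0 higher at 320 min in mock leaves, 9 higher and 1 lower at 640 min in mock leaves and 1 lower at 640 min in ABA leaves. Fitting ABA libraries alone gave 2 higher at 320 min. Leaving out 1 library at a time gave 0 to 1 higher and 32 to 40 lower at 320 min in mock leaves, and 0 to 1 and 27 to 34 in ABA leaves. At 640 min it gave 8 to 18 higher and 1 to 2 lower in mock leaves, and 10 to 17 and 1 to 4 in ABA leaves. The cause of these changes was not tested. A replicate block changed no count by over 1.5 times, with 38 lower at 320 min and 18 higher at 640 min in mock leaves. Depth limits the sparse features KMS99431 and KMT07801, which held 0 to 27 counts per mock library at 320 and 640 min.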
